A study of Sus scrofa with 6 samples.

Results

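Neuropeptide genes and the neurotrophin gene BDNF were followed in the cerebral cortex of male pigs by bulk RNA sequencing of polyadenylated RNA. The set was chosen by name and held 10 genes (BDNF, VGF, SCG2, ADCYAP1, TAC1, TAC3, PENK, PDYN, CCK and CRH) of the 28965 genes in the series. All 10 names had a row in each library, and 9 passed the filter on low counts, TAC3 being the exception. A total of 3 wildtype animals were compared with 3 animals that had inherited a UBE3A deletion from their mother, all aged 140 days and with no treatment named. UBE3A is a ubiquitin ligase that neurons express mainly from the maternal copy, and its maternal loss causes Angelman syndrome in people. The 6 libraries are from 6 animals. Being inherited, the deletion is not tied to a cell type or promoter, and neither the deleted part of the gene nor the area of cortex taken is stated in the labels. Levels are counts per 1000000 exon reads after TMM scaling (CPM). Log2 fold changes set deletion against wildtype and come from edgeR's quasi-likelihood test, with p adjusted over all 14458 tested genes.

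Neuropeptides are made as larger precursors that are cut by convertases inside dense-core vesicles and released when a neuron fires strongly, to act on G protein-coupled receptors. In cortex most of them come from classes of inhibitory neurons, while CCK is also abundant in excitatory neurons. BDNF travels in the same kind of vesicle, acts on the receptor tyrosine kinase TrkB, and supports synapse growth and plasticity. Transcription of BDNF, VGF, SCG2 and PENK is known to respond to neuronal activity, in part through the factor CREB.

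UBE3A matched the genotype label in every library, with 87.9 to 93.7 CPM in wildtype against 7.73 to 11.7 CPM in deletion cortex. The libraries held 19796762 to 28126173 exon reads. Mitochondrially encoded mRNAs took 11.2% to 13.6% of the reads in wildtype and 13.7% to 16.9% in deletion libraries, with the highest share in deletion replicate 2. The 8 excitatory neuron markers sought summed to 1328 to 1589 CPM in wildtype against 1263 to 1412 CPM in deletion cortex, and none was at 0 in all libraries. In bulk tissue, fewer cells of a type and less RNA per cell cannot be told apart.

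None of the 9 tested genes passed edgeR's threshold, an adjusted p of 0.05, against 0.00692% of all tested genes, and DESeq2 and limma-voom called 0 of them as well. At an unadjusted p under 0.05 there was 1, ADCYAP1, where 7.23% of all tested genes lay under that value. Negative log2 fold changes were found for 6 of the 9, with a median of -0.095, beside 49.5% of all tested genes and a median of 0.00. Deletion and wildtype libraries were fully apart for 1 of the 9 genes, again ADCYAP1, and 13.9% of all tested genes had groups that did not overlap. The 10 transcripts together made up 1035 to 1111 CPM in wildtype against 990.1 to 1102 CPM in deletion cortex.

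**Figure D1:**
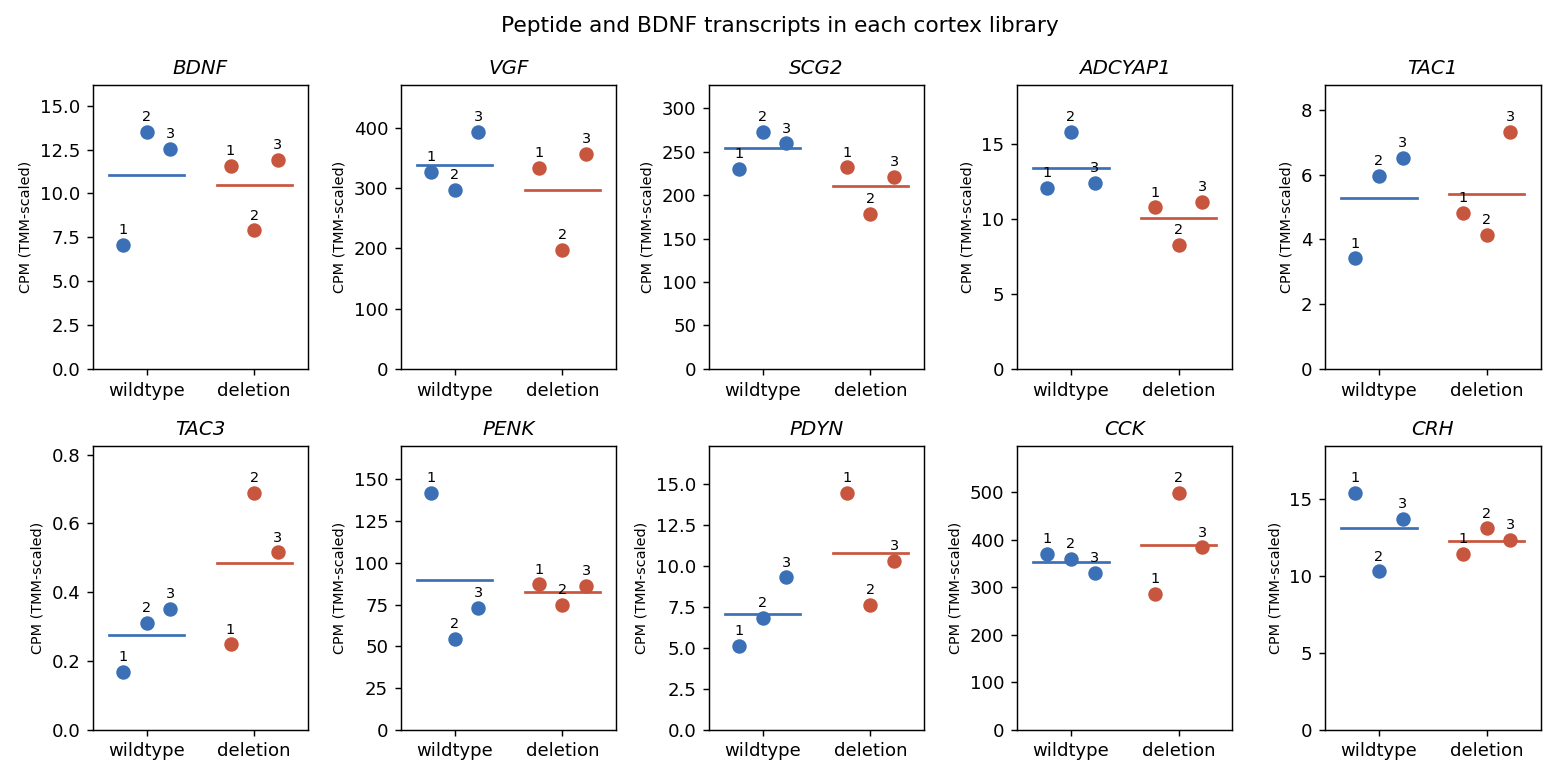
CPM (TMM-scaled, linear axis from 0) of each gene in each library, with the replicate number above each point and a bar at the group mean (n = 3 per group). The groups overlap in every panel except ADCYAP1, where the deletion libraries (8.26 to 11.1 CPM) lie below the wildtype libraries (12.1 to 15.8 CPM).

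Per kilobase of gene length, the peptide genes spanned several orders of magnitude in wildtype cortex. VGF, a granin-like precursor of the dense-core vesicle, stood first at 107 ± 15.6 CPM per kilobase (SD, n = 3). CCK, the cholecystokinin precursor, followed at 70.7 ± 4.06 and SCG2, or secretogranin II, at 63.3 ± 5.42 CPM per kilobase. The wildtype libraries of VGF and CCK did not overlap, whereas those of CCK and SCG2 did. PENK measured 32.4 ± 16.6 CPM per kilobase and CRH 8.01 ± 1.58, each apart from its neighbours in the order. TAC1 (3.96 ± 1.24), BDNF (3.22 ± 1.01), ADCYAP1 (2.96 ± 0.45) and PDYN (2.19 ± 0.65 CPM per kilobase) formed a run in which each gene overlapped the next. TAC3 came last at 0.027 ± 0.0094 CPM per kilobase. Its implied length of 10184 bases was the largest of the 10, which lowers its value on this scale. In deletion cortex the first 6 places were the same, and PDYN stood in place 7 where BDNF stood in wildtype. The order in the deposited TPM values of wildtype cortex was the same for all 10 genes. TPM also divides the same reads by gene length, so this is no independent check.

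**Figure D2:**
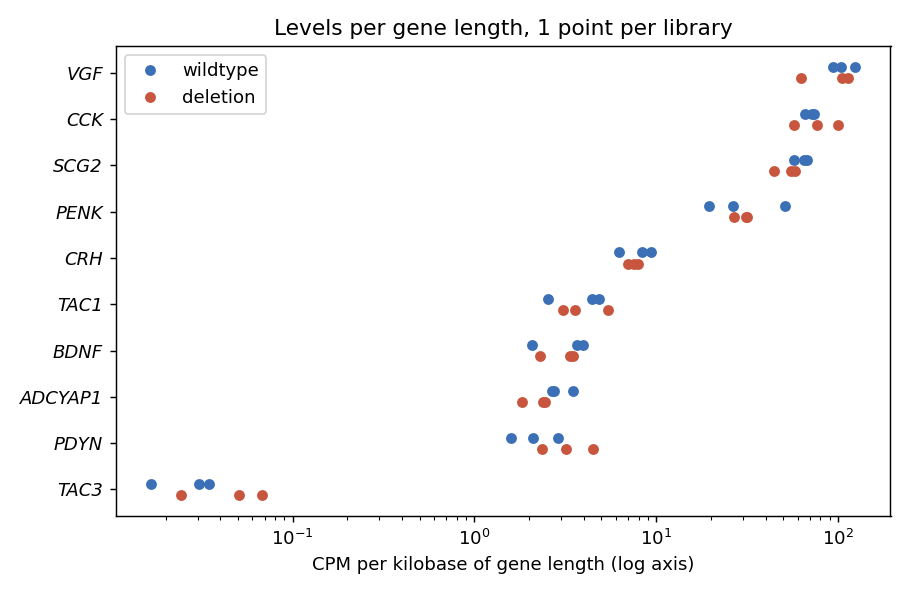
CPM per kilobase of gene length (log axis) for each gene, 1 point per library, ordered by the wildtype mean. VGF leads at 107 CPM per kilobase in wildtype, and TAC1, BDNF, ADCYAP1 and PDYN lie close together between 1.58 and 4.87 CPM per kilobase in wildtype.

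VGF and SCG2 are precursors sorted into dense-core vesicles, where SCG2 helps to form the granule and gives rise to secretoneurin. VGF measured 327, 296 and 393 CPM in wildtype replicates 1 to 3 and 334, 197 and 357 CPM in deletion replicates 1 to 3. Deletion replicate 2 was the lowest library, and the other 2 deletion libraries lay inside the wildtype range. The log2 fold change was -0.19 (SE 0.22, edgeR adjusted p = 0.827), with a 95% interval of the fold from 0.611 to 1.25. Without deletion replicate 2 it was 0.03.

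SCG2 measured 229.8, 272 and 259 CPM in the wildtype libraries and 232, 178 and 221 CPM in the deletion libraries. Here too deletion replicate 2 was lowest, and deletion replicate 1 lay just above wildtype replicate 1, so the groups overlapped. The group means were 254 ± 21.7 and 210.2 ± 28.3 CPM (SD, n = 3), with a log2 fold change of -0.27 (SE 0.12, 95% interval -0.55 to 0.01, edgeR adjusted p = 0.683). The value stayed negative with any 1 library left out, between -0.35 and -0.17. The ratio of VGF to SCG2 reads within a library ran from 1.09 to 1.51 in wildtype and from 1.11 to 1.62 in deletion cortex. It was lowest in replicate 2 of each group.

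ADCYAP1 encodes PACAP, a peptide that raises cyclic AMP through the receptor PAC1. It measured 12.1, 15.8 and 12.4 CPM in wildtype replicates 1 to 3 and 10.8, 8.26 and 11.1 CPM in the deletion replicates. All 3 deletion libraries lay below all 3 wildtype libraries, which 7% of all tested genes also showed in this direction. The group means were 13.4 ± 2.05 and 10.04 ± 1.55 CPM (SD, n = 3), with a log2 fold change of -0.42 (SE 0.17, 95% interval -0.80 to -0.03). The unadjusted p was 0.0372 and the edgeR adjusted p 0.683, so the gene did not pass. With 1 library left out, the log2 fold change ran from -0.49 to -0.28. It was -0.28 without wildtype replicate 2, the highest library, and -0.30 without deletion replicate 2, the lowest.

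BDNF is the neurotrophin most studied in synaptic plasticity. Its gene has several promoters, and the counts used here sum all its transcripts. Reads of a transcript on the opposite strand cannot be told apart, because no source used here says whether counting used strand. BDNF measured 7.08, 13.5 and 12.5 CPM in the wildtype libraries and 11.6, 7.89 and 11.9 CPM in the deletion libraries. Wildtype replicate 1 and deletion replicate 2 were both low, and the remaining 4 libraries lay between 11.6 and 13.5 CPM. The group means were 11.04 ± 3.46 and 10.5 ± 2.23 CPM (SD, n = 3), a log2 fold change of -0.08 (SE 0.26, edgeR adjusted p = 0.9495). The 95% interval of the fold, 0.62 to 1.45, leaves room for a shift of either sign at 3 animals per group. Leaving out 1 library moved the value between -0.32 and 0.10.

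Over the 6 libraries, the genes whose log2 levels, centred on their own means, lay nearest to those of BDNF were OLFML2B, NPTX2 and ADAT1, among 12665 tested genes with a symbol. The root mean square differences were 0.07, 0.09 and 0.09 on the log2 scale. NPTX2, or neuronal pentraxin 2, is a secreted protein that binds AMPA receptors and whose transcript responds to neuronal activity. It measured 59.2, 114 and 119.8 CPM in the wildtype libraries and 94.4, 67.1 and 93.6 CPM in the deletion libraries. Like BDNF it was lowest in wildtype replicate 1 and next lowest in deletion replicate 2. NPTX2 was picked for its nearness to BDNF over these 6 libraries, so the shared order is no separate result. How often so close a match would arise by chance among 12665 genes was not tested. Of the peptide genes, TAC1 was nearest to BDNF (rank 28, difference 0.17) and PENK farthest (rank 12331, difference 0.69). SCG2 and VGF, which like PENK are known to respond to neuronal activity, ranked 410 and 2837.

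The tachykinin genes are TAC1, the precursor of substance P and neurokinin A, and TAC3, the precursor of neurokinin B. TAC1 measured 3.41, 5.95 and 6.52 CPM in the wildtype libraries and 4.81, 4.13 and 7.31 CPM in the deletion libraries. Wildtype replicate 1 was the lowest library and deletion replicate 3 the highest, with wide overlap. The difference was 0.03 as log2 fold change (SE 0.30, 95% interval -0.66 to 0.73, edgeR adjusted p = 0.984). TAC3 was near the limit of detection, with 4, 9 and 7 reads in the wildtype libraries and 7, 15 and 11 in the deletion libraries, 53 in all. Deletion replicate 1 lay inside the wildtype range. Without the filter on low counts its log2 fold change was 0.78 (SE 0.59, edgeR adjusted p = 0.794).

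The opioid precursors varied most between animals among the 9 tested genes, by the ratio of the highest to the lowest library. PENK, which yields the enkephalins, measured 142, 54.3 and 73.1 CPM in the wildtype libraries and 87.1, 74.6 and 86.3 CPM in the deletion libraries. Wildtype replicate 1 stood well above the other 5 libraries, and the deletion libraries lay close together. The means were 89.8 ± 46.1 and 82.7 ± 7.03 CPM (SD, n = 3), with a log2 fold change of -0.12 (SE 0.32, edgeR adjusted p = 0.934). Without wildtype replicate 1 the value was 0.38, and without wildtype replicate 2 it was -0.38. The highest library exceeded the lowest 2.61-fold, a ratio that 11.5% of all tested genes reached.

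PDYN, which yields the dynorphins, ran the other way in that animal. It measured 5.10, 6.81 and 9.28 CPM in the wildtype libraries and 14.4, 7.62 and 10.3 CPM in the deletion libraries. Wildtype replicate 1 was lowest, deletion replicate 1 highest, and deletion replicate 2 between wildtype replicates 2 and 3. The means were 7.06 ± 2.10 and 10.8 ± 3.43 CPM (SD, n = 3). Its log2 fold change of 0.62 was the largest in size among the 9 genes (SE 0.29, 95% interval -0.04 to 1.28, unadjusted p = 0.0629, edgeR adjusted p = 0.685). The value was positive with any 1 library left out, between 0.35 without deletion replicate 1 and 0.86 without wildtype replicate 3. Deletion replicate 1 had the highest sum of the 4 choroid plexus markers measured, none of them at 0 in all libraries. The sum was 55.9 CPM, against 25.6 to 29.3 CPM in wildtype and 28.6 and 38.6 CPM in the other deletion libraries. In deletion replicate 1 TTR was 17.2 CPM, where no other library exceeded 1.51 CPM. CLIC6 was 15.9 CPM there and 6.57 CPM in wildtype replicate 1. FOLR1, at 20.8 CPM in deletion replicate 1, lay inside the wildtype range. KCNJ13 was 2.05 CPM there, against 1.79 and 1.59 CPM in the other deletion libraries. Deletion replicate 1 also had the highest sum of the 7 oligodendrocyte markers measured, 23486 CPM. That sum was 10080 to 20567 CPM in wildtype and 9392 and 18561 CPM in the other deletion libraries. The part of these markers in the PDYN value was not tested.

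The animals of replicate 1 in each group share the leading part of the animal number, 14, and the other 4 share 15, a number the labels do not explain. Among the 4 animals numbered 15, PDYN had a log2 fold change of 0.17 (SE 0.24), PENK of 0.34 (SE 0.17), ADCYAP1 of -0.54 (SE 0.22) and SCG2 of -0.41 (SE 0.13). The edgeR adjusted p values of these 4 genes within those animals were 0.831, 0.543, 0.4995 and 0.458. The animals numbered 14 are 1 of each genotype and allow no test. With the number as a covariate over all 6 libraries, the log2 fold change of PDYN was 0.60 and that of ADCYAP1 -0.42. The ratio of PENK to PDYN reads within a library was 27.8 in wildtype replicate 1. It lay between 6.03 and 9.79 in the other 5 libraries.

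Since PENK, PDYN and TAC1 mark inhibitory neurons of the cortex and are also abundant in striatal projection neurons, markers of both were followed. The 9 inhibitory neuron markers summed to 708 to 1051 CPM in wildtype against 673 to 895 CPM in deletion cortex, and none was at 0 in all libraries. Gene by gene, 7 of the 9 markers had negative log2 fold changes, beside 49.5% of all tested genes. None of them passed edgeR's test, and 2 had an unadjusted p under 0.05, beside 7.23% of all tested genes. GAD2, which makes GABA, the interneuron transcription factor LHX6 and the GABA vesicle transporter SLC32A1 had deletion libraries all below the wildtype ones. Of all tested genes, 7% lay apart in this direction. Their log2 fold changes were -0.48, -0.35 and -0.39, and they are named after their values were seen. Of the other markers, PVALB (0.45) and DLX5 (0.15) were positive. LAMP5 (-0.15), ADARB2 (-0.14), DLX1 (-0.12) and GAD1 (-0.09) were negative, and the groups overlapped for each of these other markers. Wildtype replicate 1 had the highest sum of the inhibitory neuron markers. It was the library with the highest PENK and CRH but also with the lowest PDYN and TAC1. The 9 striatal markers summed to 89.99 to 113 CPM in wildtype against 103 to 136 CPM in deletion cortex, with ISL1 at 0 in every library and DRD2 at no more than 0.281 CPM. Their part in the opioid peptide values was not tested.

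CCK measured 369.6, 359.6 and 331 CPM in the wildtype libraries and 286, 499 and 384 CPM in the deletion libraries. The wildtype libraries lay close together, while the deletion libraries held both the lowest and the highest value of the series. The means were 353 ± 20.3 and 389.6 ± 106 CPM (SD, n = 3), with a log2 fold change of 0.14 (SE 0.18, 95% interval -0.28 to 0.57, edgeR adjusted p = 0.851). Without deletion replicate 2 the value was -0.08. Deletion replicate 2, which had the highest CCK, was the library with the lowest VGF and SCG2. Its ratio of CCK to VGF reads was 2.53, against 0.842 to 1.21 in the other 5 libraries.

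CRH, the corticotropin-releasing hormone that cortical interneurons also make, measured 15.4, 10.3 and 13.7 CPM in the wildtype libraries and 11.4, 13.1 and 12.3 CPM in the deletion libraries. All 3 deletion libraries lay inside the wildtype range. The log2 fold change was -0.09 (SE 0.17, edgeR adjusted p = 0.892), and the 95% interval of the fold was 0.72 to 1.22. The 5 hypothalamic markers measured summed to 0.351 to 0.551 CPM in wildtype against 0.459 to 0.562 CPM in deletion cortex, with FEZF1 at 0 in every library.

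**Figure D3:**
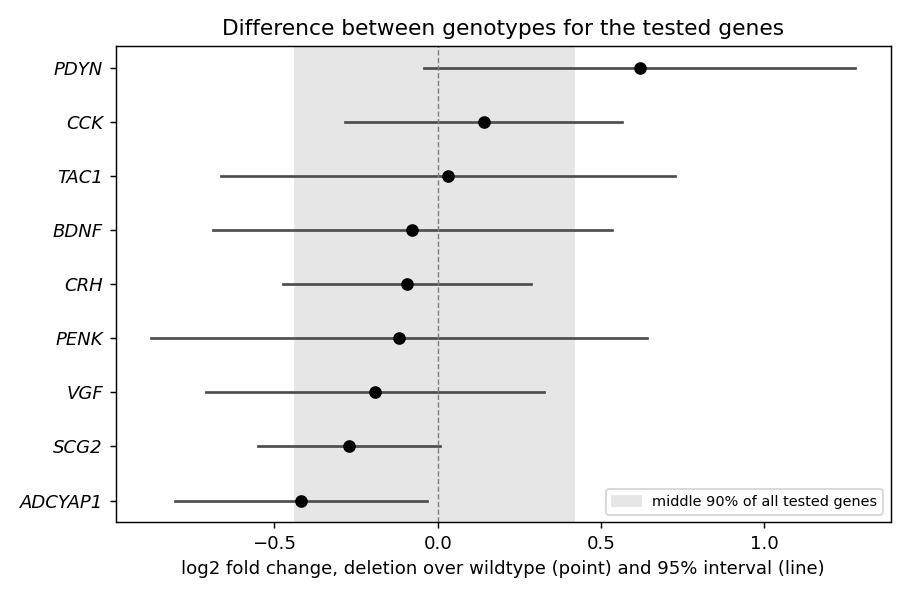
Log2 fold change of deletion over wildtype for the 9 tested genes (points) with the 95% interval from edgeR's quasi-likelihood test (lines), over a band with the middle 90% of all tested genes, from -0.44 to 0.42. PDYN lies outside the band at 0.62, and the interval of ADCYAP1 (-0.80 to -0.03) is the one that leaves out 0.

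**Figure D4:**
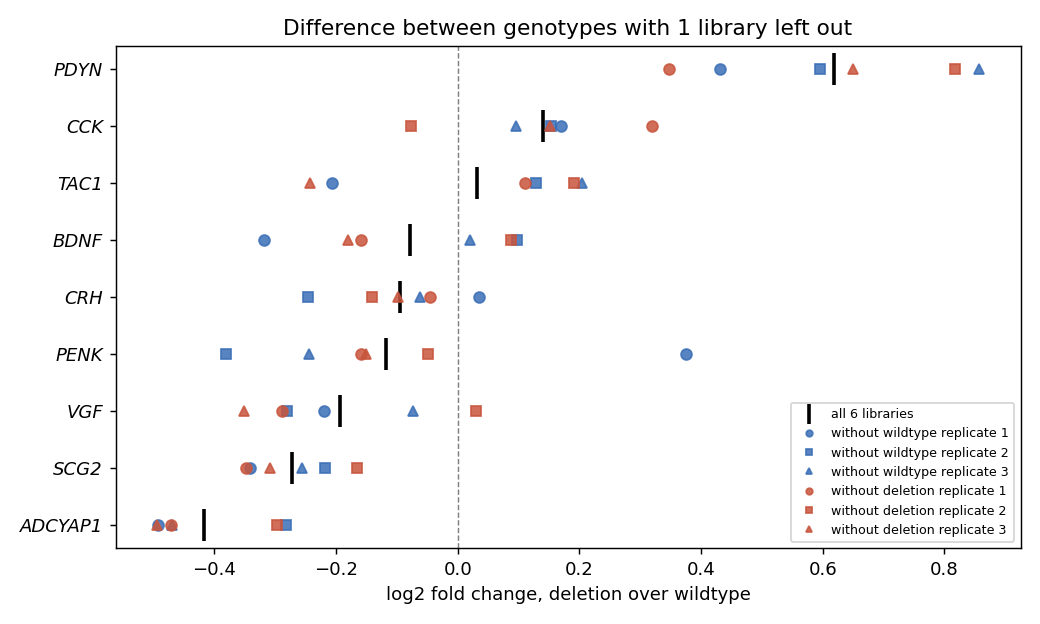
Log2 fold change of deletion over wildtype for the 9 tested genes with all 6 libraries (bars) and with each library left out in turn (symbols). ADCYAP1, SCG2 and PDYN keep their sign throughout, whereas PENK runs from -0.38 to 0.38.

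The authors' deposited table gave the same direction for each of the 10 genes. PDYN had a fold change of 1.54 in the authors' deposited table, with a p-value of 0.0195 and an adjusted p of 0.843. ADCYAP1 had a fold change of -1.33 in the authors' deposited table, with a p-value of 0.0461 and an adjusted p of 0.997. The other 8 genes had p-values between 0.0942 and 0.91 in the authors' deposited table, and none of the 10 passed an adjusted p of 0.05 there.

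Of the 18 receptor genes sought for these ligands, 15 were tested and none passed edgeR's test in either direction. At an unadjusted p under 0.05 there was 1, beside 7.23% of all tested genes, and DESeq2 called 0. The median log2 fold change was -0.24, beside 0.00 for all tested genes. Of the 15 values 13 were negative, beside 49.5% of all tested genes. The groups did not overlap for 1 receptor, CCKAR, where 13.9% of all tested genes had such groups. CCKBR was not analysed here. OPRM1 (1 to 43 reads per library) and TACR2 (at most 1 read) fell below the filter.

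Receptors of BDNF comprised NTRK2, which encodes TrkB, NGFR, which encodes the p75 neurotrophin receptor, and the sorting receptors SORT1 and SORCS2. NTRK2 measured 157, 140.3 and 93.6 CPM in the wildtype libraries and 154, 50.4 and 57.2 CPM in the deletion libraries. Deletion replicate 1 was close to the highest wildtype library, and deletion replicates 2 and 3 were the lowest of the series (log2 fold change -0.58, SE 0.43, edgeR adjusted p = 0.739). SORT1 showed the same 2 low libraries, with 331, 369 and 276 CPM for wildtype, then 387, 206 and 209.7 CPM for the deletion animals (-0.28, SE 0.26). SORCS2 had a log2 fold change of -0.24 and NGFR, at 2.10 ± 1.07 CPM in wildtype, of 0.54.

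The PACAP receptor gene ADCYAP1R1 measured 122, 102 and 76.0 CPM in the wildtype libraries and 117, 55.6 and 56.5 CPM in the deletion libraries. As with NTRK2, deletion replicates 2 and 3 were the lowest libraries (log2 fold change -0.39, SE 0.32, edgeR adjusted p = 0.757). VIPR1 and VIPR2, which bind both PACAP and VIP, had log2 fold changes of -0.13 and -0.33. The glutamate transporter SLC1A2 is 1 of the 7 astrocyte markers and is named after its values were seen. Like NTRK2, SORT1 and ADCYAP1R1, it was lowest in deletion replicates 2 and 3 and next lowest in wildtype replicate 3. It measured 301, 313 and 129 CPM in the wildtype libraries and 357, 89.3 and 82.4 CPM in the deletion libraries. SLC1A3 and ALDH1L1 were also low in these libraries, with deletion replicate 3 lowest, wildtype replicate 3 next and deletion replicate 2 after it. GFAP, AQP4, SOX9 and GJA1 went the other way and were highest in deletion replicate 2 (3160, 706, 59.7 and 375 CPM). The sum of the astrocyte markers was highest there too, at 4965 CPM. Deletion replicates 2 and 3 also had the highest mitochondrial shares of reads, 16.9% and 16.1%. The part of the astrocyte markers, of the mitochondrial share or of RNA integrity in these receptor values was not tested.

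TACR1, the substance P receptor, measured 15.3, 13.7 and 9.48 CPM in the wildtype libraries and 11.2, 7.85 and 5.81 CPM in the deletion libraries. Deletion replicate 1 overlapped the wildtype libraries. The log2 fold change was -0.62 (SE 0.27, unadjusted p = 0.0474, edgeR adjusted p = 0.683). TACR3, the neurokinin B receptor, had a log2 fold change of -0.51 (SE 0.30).

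The kappa opioid receptor OPRK1, which binds dynorphin, was low at 1.53 ± 0.62 CPM in wildtype against 0.81 ± 0.41 CPM in deletion cortex, or -0.89 as log2 fold change (SE 0.45, edgeR adjusted p = 0.685). Delta opioid receptor OPRD1 had a value of -0.10 and the nociceptin receptor OPRL1 one of -0.18. CCKAR measured 3.90 ± 0.46 CPM in wildtype against 4.86 ± 0.31 CPM in deletion cortex, with the deletion libraries all above the wildtype ones (0.31, SE 0.19, edgeR adjusted p = 0.703). The CRH receptors CRHR1 and CRHR2 had log2 fold changes of -0.06 and -0.24.

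Of 31 genes of precursor processing and dense-core vesicles, 30 were tested and 0 passed edgeR's test in either direction. DESeq2 called 0. At an unadjusted p under 0.05 there were 7, where 7.23% of all tested genes lay. The groups did not overlap for 2 genes that were higher and 7 that were lower in deletion cortex, beside 6.88% and 7% of all tested genes. The median log2 fold change was -0.07. SYT17, a synaptotagmin-family protein, measured 103 ± 9.72 CPM in wildtype against 70.9 ± 9.58 CPM in deletion cortex, or -0.54 as log2 fold change (SE 0.12). PTPRN2, a membrane protein of dense-core vesicles, measured 306 ± 21.1 and 236 ± 18.1 CPM (-0.38, SE 0.10). HID1, which takes part in forming these vesicles, measured 80.8 ± 7.20 and 64.4 ± 4.63 CPM (-0.33, SE 0.10). Each of these 3 had an edgeR adjusted p of 0.683.

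PCSK2 and CPE, which act directly on the precursors, are given as well, chosen after their values were seen. PCSK2, a convertase that cuts at paired basic residues, measured 329 ± 5.90 CPM in wildtype against 269 ± 31.1 CPM in deletion cortex, or -0.29 as log2 fold change (SE 0.10). CPE, the carboxypeptidase that trims the cut ends, measured 1054 ± 46.1 and 1236 ± 44.7 CPM (0.23, SE 0.09). In both the groups did not overlap, in opposite directions, and each had an edgeR adjusted p of 0.683. The convertase PCSK1, also chosen afterwards, had a log2 fold change of -0.01.

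**Figure D5:**
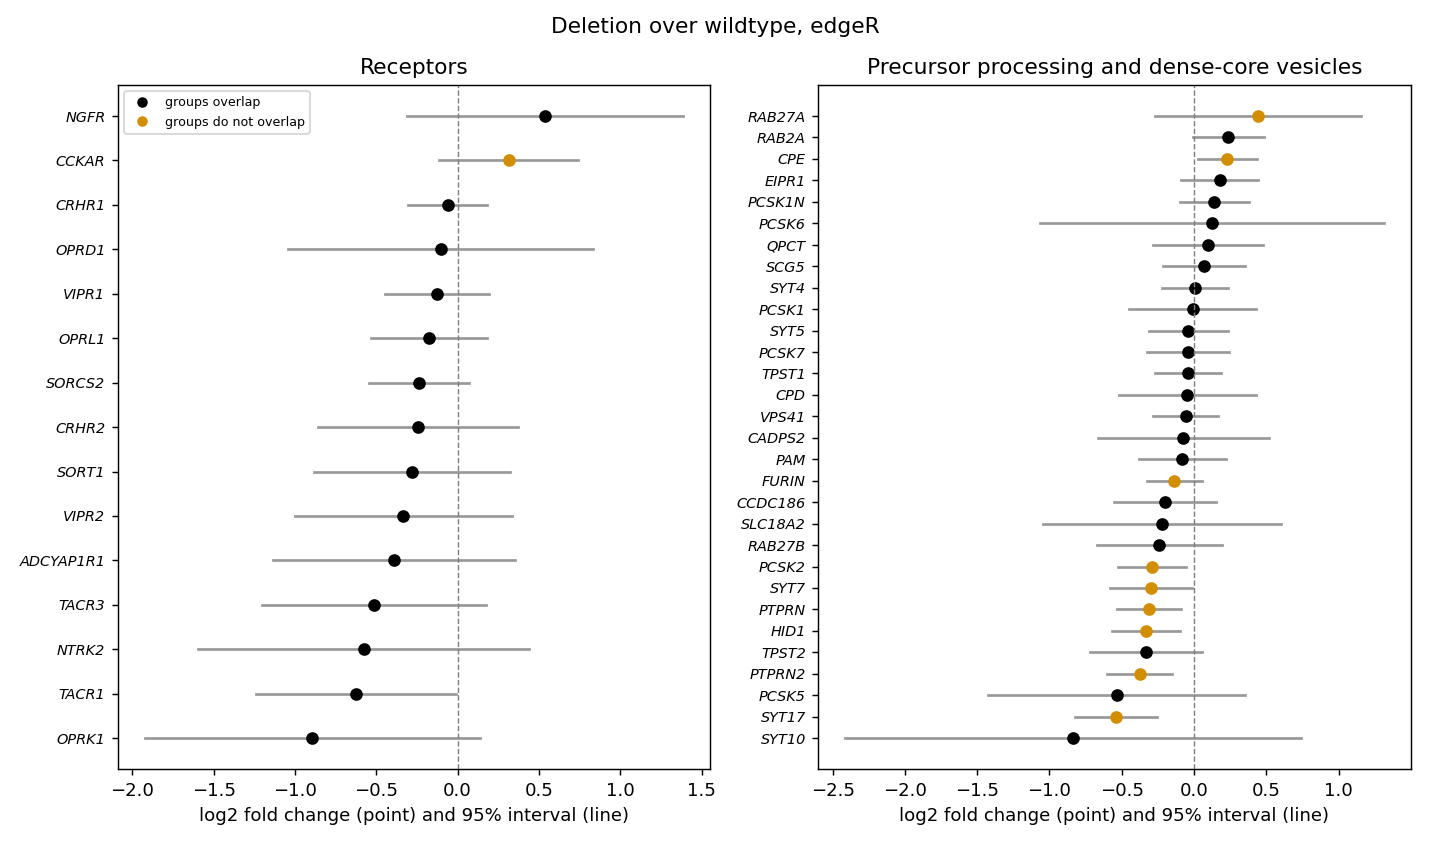
Log2 fold change of deletion over wildtype (points) with the 95% interval from edgeR (lines) for 15 receptor genes and 30 genes of precursor processing and dense-core vesicles. Coloured points are genes whose libraries did not overlap between groups, 1 of the receptors and 9 of the processing genes, and none passed the adjusted threshold.

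Of 45 other peptide precursors and secreted partners, 21 were tested and 0 passed edgeR's test, with 2 at an unadjusted p under 0.05, beside 7.23% of all tested genes. The groups did not overlap for 2, SST and AGT, where 13.9% of all tested genes had such groups. The values were negative for 12 and positive for 9, with a median of -0.07, beside 49.5% negative among all tested genes. SST, the somatostatin precursor of a major interneuron class, measured 159, 165 and 159 CPM in the wildtype libraries and 78.9, 86.3 and 125 CPM in the deletion libraries (log2 fold change -0.74, SE 0.17, edgeR adjusted p = 0.683). DESeq2 called SST and no other gene of these 21, beside 0.131% of all tested genes. The 9 inhibitory neuron markers are given above, 7 with negative and 2 with positive log2 fold changes. Their part in the values of SST and PNOC was not tested. AGT, or angiotensinogen, which astrocytes make, measured 228 ± 13.9 CPM in wildtype against 301 ± 32.0 CPM in deletion cortex (0.40, SE 0.10), with groups that did not overlap. Of the 7 astrocyte markers, which summed to 3456 to 4315 CPM in wildtype against 4164 to 4965 CPM in deletion cortex with none at 0, 4 had positive log2 fold changes. SOX9 (0.38) and GFAP (0.36) had deletion libraries all above the wildtype ones, beside 6.88% of all tested genes. Their unadjusted edgeR p values were 0.00536 and 0.0252, where 7.23% of all tested genes lay under 0.05. Neither passed edgeR's test (adjusted p = 0.683 for both). AQP4 (0.34) and GJA1 (0.14) were positive with groups that overlapped. SLC1A2 (-0.49), ALDH1L1 (-0.34) and SLC1A3 (-0.07) were negative. The part of these markers in the AGT value was not tested. PNOC, the nociceptin precursor, measured 9.83 ± 1.08 and 7.57 ± 1.57 CPM (-0.38, SE 0.18).

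Of 18 genes known to control transcription of BDNF and peptide genes, all were tested and 0 passed edgeR's test. At an unadjusted p under 0.05 there were 2, beside 7.23% of all tested genes, and DESeq2 called 0. The groups did not overlap for 3, beside 13.9% of all tested genes. MEF2D, an activity-dependent transcription factor, measured 216 ± 15.8 CPM in wildtype against 166 ± 13.1 CPM in deletion cortex, or -0.38 as log2 fold change (SE 0.10). Its relative MEF2C measured 698 ± 59.3 and 602 ± 31.8 CPM (-0.21, SE 0.10). ATF1, a factor of the CREB family, measured 4.93 ± 0.55 and 6.604 ± 0.63 CPM (0.42, SE 0.17). These 3 genes, named for their low p, are the ones whose groups did not overlap, and their edgeR adjusted p values were 0.683, 0.685 and 0.683.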

How the data were processed

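Cortex of 6 male pigs was sequenced from stranded polyadenylated-RNA libraries, per the labels' protocols. The stated minimum RNA integrity number was 6.1, and no value per library was used here. Groups came from the genotype label and replicate numbers from accession order. The authors deposited exon read counts per gene and library, and no source used here names the aligner, counting tool, genome build or use of strand. Blank cells were read as counts of 0. The deposited RPKM values gave the length each gene had been divided by, the deposited TPM values were an alternative scale, and the authors' CPM column, a score of their own scaling, was not used. The authors' deposited table holds a signed fold change (a score here), p-value and adjusted p-value per gene, and its 6 group CPM columns were not used. Of IDs without a name, 777 took one from the table of gene names and 11942 kept none.

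Counts were filtered with filterByExpr, scaled with TMM and tested with edgeR 4.0.16 in R 4.3.3 (quasi-likelihood, robust, no covariate, Benjamini-Hochberg at 0.05). SE was obtained by dividing the size of the log2 fold change by the root of F. Alternatives used DESeq2 1.42.0, limma 3.58.1, other filters and scalings, the animal-number prefix and each library left out. Genes were named by rule: all 10 genes, every tested receptor, the 3 of lowest p in each other list, and the 3 nearest BDNF by log2(CPM + 0.5). PCSK1, PCSK2, CPE and the cell type markers given by name were chosen after their values were seen. The genes and lists were chosen with earlier results of these data known. On simulated data for this comparison (14322 genes), 50 genes each were changed 1.5-, 2- and 8-fold and 49 were changed 3-fold. The edgeR step called 38% of genes changed 1.5-fold and 62% changed 2-fold, with 15 false calls. In the real data 1 gene passed, and with fewer passing genes the adjusted threshold is stricter. These shares may therefore be too high for the real data.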

Additional observations from a re-analysis of the deposited data

How the results depend on the processing

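Under the 14 alternatives, no peptide gene passed the adjusted threshold. ADCYAP1, SCG2, PDYN and TAC3 kept their sign under every alternative that tested them, and 13 of 131 values for the 10 genes changed sign. BDNF was 0.10 with limma-voom. Among the 4 animals numbered 15, a subset chosen after seeing the data, TAC1 was -0.12, PENK 0.34 and CRH 0.092. With 1 library left out, the log2 fold change ran from -0.32 to 0.10 for BDNF, -0.35 to 0.031 for VGF, -0.24 to 0.20 for TAC1, -0.38 to 0.38 for PENK, -0.076 to 0.32 for CCK and -0.25 to 0.035 for CRH. Over all genes edgeR called 1, DESeq2 called 19, edgeR without a filter on low counts called 2 and edgeR on the animals numbered 15 called 2. With 1 library left out, edgeR called 1 to 2 genes, the 2 without deletion replicate 1. Of the other peptide precursors DESeq2 called 1, SST. Unique exon reads were not analysed here. No paired analysis was possible because the replicate numbers follow accession order. The cause of these shifts was not tested. At this depth and with 3 animals per group, most shifts under 1.5-fold would not pass. A larger estimated shift did not pass either, with SST at a fold of 0.60 (edgeR adjusted p = 0.683).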

Other observations

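Among peptidases and related enzymes that cut released peptides or BDNF, 14 of 17 were tested and 0 passed edgeR's test. At an unadjusted p under 0.05 there were 0, beside 7.23% of all tested genes, and DESeq2 called 0. The groups did not overlap for 1 gene that was higher, PLAT, and 1 that was lower, ANPEP, beside 6.88% and 7% of all tested genes. PLAT, or tissue plasminogen activator, starts the cascade that matures BDNF. It measured 32.8 ± 2.81 CPM in wildtype against 38.7 ± 3.90 CPM in deletion cortex. ECE1, or endothelin-converting enzyme, measured 31.0 ± 4.17 and 25.7 ± 2.50 CPM, and PREP, a prolyl peptidase, 52.8 ± 7.22 and 46.2 ± 3.63 CPM.

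Of 13 other neurotrophic factors, 9 were tested and 0 passed edgeR's test. DESeq2 called 0, and 0 had an unadjusted p under 0.05, beside 7.23% of all tested genes. VEGFA, a vascular growth factor, measured 20.4 ± 1.79 CPM in wildtype against 23.6 ± 2.23 CPM in deletion cortex. NTF4, another ligand of TrkB, stood at 0.97 ± 0.27 and 0.73 ± 0.021 CPM, and NRTN, or neurturin, at 0.77 ± 0.23 and 1.04 ± 0.17 CPM.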
